A study of Homo sapiens with 18 samples.

Results

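The regions described here were DRIP–seq regions of MCF10A cells that were called in DMSO, not called after 2 h of phorbol 12-myristate 13-acetate (PMA), and called again after 6 h of PMA. They were selected on the measured peak calls: windows of the 6 DRIP peak lists that overlapped by 1 bp or more on the autosomes and chrX were merged, and a merged region was kept when it held a window from both DMSO lists and both PMA 6 h lists and from neither PMA 2 h list. This left 2080 members among 250966 merged regions, or 0.829%. Since the peak calls chose them, their presence in DMSO and at 6 h and their absence at 2 h are a description and not a result, and absence means that no window passed the peak caller's threshold, not that no hybrid was there.

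MCF10A is a nontumorigenic human breast epithelial line. DRIP–seq was done on the parental line (WT) and on a derivative without the DNA cytosine deaminase APOBEC3B (A3B KO, made by a CRISPR deletion that fuses the gene with the neighboring APOBEC3A), each given the vehicle DMSO, 2 h of PMA or 6 h of PMA (25 ng/ml), with the DNA sonicated and RNA/DNA hybrids pulled down with the S9.6 antibody. In a separate MCF10A line, A3B-eGFP under a doxycycline-inducible promoter was pulled down with an anti-GFP antibody in 3 conditions: no doxycycline with DMSO, 1 µg/ml doxycycline for 24 h with DMSO, and the same doxycycline with PMA for 2 h. There was no anti-GFP sample with PMA at 6 h and none with PMA and no doxycycline. The WT and KO cells of the DRIP experiment carried no A3B-eGFP, and no RNase H-treated DRIP library was analysed here. Each condition had 1 library with its own input, so no difference between conditions has a replicate check, no p-value is given, and the 95% Wilson intervals below cover counting error alone.

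An R-loop is a structure in which RNA pairs with the template DNA strand and leaves the other strand single, usually behind a transcribing RNA polymerase. R-loops form readily where the RNA is rich in G, near gene starts and gene ends, and they are removed by RNase H, by helicases and when transcription stops. PMA activates protein kinase C, and through it the MAPK and NF-κB pathways, so it turns on many genes within hours.

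Centers of 6 members are printed to show what the DNA of these regions looked like. They were taken from the named members so as to span low and high GC content, each as 200 bases of hg38 on the coding strand of the gene that holds it, 5′ to 3′, with each run of 3 or more G in capitals. CD24 (chr6:106974343-106974542, minus strand) and CCND1 (chr11:69643060-69643259, plus strand) hold GC-rich members toward their starts, MIRLET7BHG (chr22:46080425-46080624, plus strand) is the gene with the most members, FDXR (chr17:74870575-74870774, minus strand) has a member with G far above C, and NCL (chr2:231463159-231463358, minus strand) and EIF4E (chr4:98927728-98927927, minus strand) show members of low GC content in genes of ribosome production and translation.
CD24: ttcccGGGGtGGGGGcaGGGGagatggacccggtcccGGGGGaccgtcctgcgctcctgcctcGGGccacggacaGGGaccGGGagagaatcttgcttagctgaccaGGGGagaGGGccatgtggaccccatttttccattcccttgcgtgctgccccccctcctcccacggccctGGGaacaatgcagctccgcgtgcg
CCND1: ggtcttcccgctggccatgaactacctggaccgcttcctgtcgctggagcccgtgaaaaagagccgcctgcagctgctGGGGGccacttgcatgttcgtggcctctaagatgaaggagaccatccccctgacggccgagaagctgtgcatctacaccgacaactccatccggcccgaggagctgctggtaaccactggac
MIRLET7BHG: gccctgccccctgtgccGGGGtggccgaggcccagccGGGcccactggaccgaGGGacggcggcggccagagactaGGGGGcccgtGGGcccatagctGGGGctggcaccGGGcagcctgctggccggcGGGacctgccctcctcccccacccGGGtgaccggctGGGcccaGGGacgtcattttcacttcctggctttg
FDXR: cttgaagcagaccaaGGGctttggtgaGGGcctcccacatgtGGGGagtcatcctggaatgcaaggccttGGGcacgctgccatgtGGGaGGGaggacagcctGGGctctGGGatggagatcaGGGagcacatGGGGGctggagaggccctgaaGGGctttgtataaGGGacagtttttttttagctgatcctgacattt
NCL: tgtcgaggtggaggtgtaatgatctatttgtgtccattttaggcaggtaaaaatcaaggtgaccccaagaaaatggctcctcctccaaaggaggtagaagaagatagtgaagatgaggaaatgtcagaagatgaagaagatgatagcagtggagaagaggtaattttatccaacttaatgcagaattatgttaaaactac
EIF4E: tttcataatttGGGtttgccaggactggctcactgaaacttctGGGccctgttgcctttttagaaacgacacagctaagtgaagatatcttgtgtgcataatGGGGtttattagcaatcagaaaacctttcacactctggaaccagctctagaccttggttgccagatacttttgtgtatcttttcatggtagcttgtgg
The FDXR center had 73 G and 40 C with 12 runs of G, and the NCL center had 53 G and 25 C with no run of G. The CD24 center had 69 G and 68 C, and the MIRLET7BHG center had 76 G and 75 C, so that runs of G stood on both strands. The CCND1 center overlaps an exon and held 1 run of G at 61.5% GC, and the EIF4E center held 3 at 42.5% GC.

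Regions called in both DMSO and both 6 h lists numbered 37455, and 5.55% of them, the 2080 members, were in neither 2 h list. A further 6380 (17.0%) were in one 2 h list and 28995 (77.4%) in both. The 2 h calls of the lines can be set side by side as a description, since the same calls chose the members. Among these regions, those not called in WT at 2 h were also not called in KO at 2 h in 2080 of 5788 cases (35.9%; interval, 34.7 to 37.2%), against 2672 of 31667 (8.44%; 8.14 to 8.75%) where WT was called. Without the condition on the other line, 14924 regions had the pattern in WT, and 2080 of them (13.9%) had it in KO too. Over all 250966 merged regions, 16310 had the pattern in KO. The median fold over input in WT DMSO was 4.47 at the members and 5.19 at the regions called in all 6 lists, and the part of peak strength in this sharing was not tested. Of the 6210 regions called in both DMSO lists and in neither 2 h list, the members made up 33.5%, 2284 regions came back in one 6 h list, and 1846 were called in no later list. The mirror of the rule, a region in both DMSO and both 2 h lists and in neither 6 h list, was met by 447 of 32019 (1.40%). The other mirror, a region in both 2 h and both 6 h lists and in neither DMSO list, was met by 5736 of 47440 (12.1%). List length differed in a way that bears on these counts: the DMSO lists held 91894 (WT) and 98432 (KO) windows, the 2 h lists 111771 and 120428, and the 6 h lists 165877 and 169126. The 2 h lists were longer than the DMSO lists. List length is not read depth, which is unknown, and the part of either in these calls was not tested. With every list cut to 91894 windows by −log10 q, 1045 regions met the rule.

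Members were peaks of middle strength. The fold over input of the highest window in a member had a median of 4.47 in WT DMSO, 4.50 in KO DMSO, 4.71 in WT PMA 6 h and 4.51 in KO PMA 6 h, and the lowest and highest single values were 1.69 and 21.9. In the same lists the 28995 regions called throughout had medians of 5.19, 5.09, 6.55 and 6.04, and the 1846 regions called in DMSO alone had 3.71 and 3.68. Ranked within its own list, the median member stood at percentile 54.4 in WT DMSO and 54.6 in KO DMSO, and at percentile 41.3 in WT and 47.1 in KO at 6 h. The 6 h lists were longer than the DMSO lists, so these percentiles describe each list by itself.

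**Figure D1:**
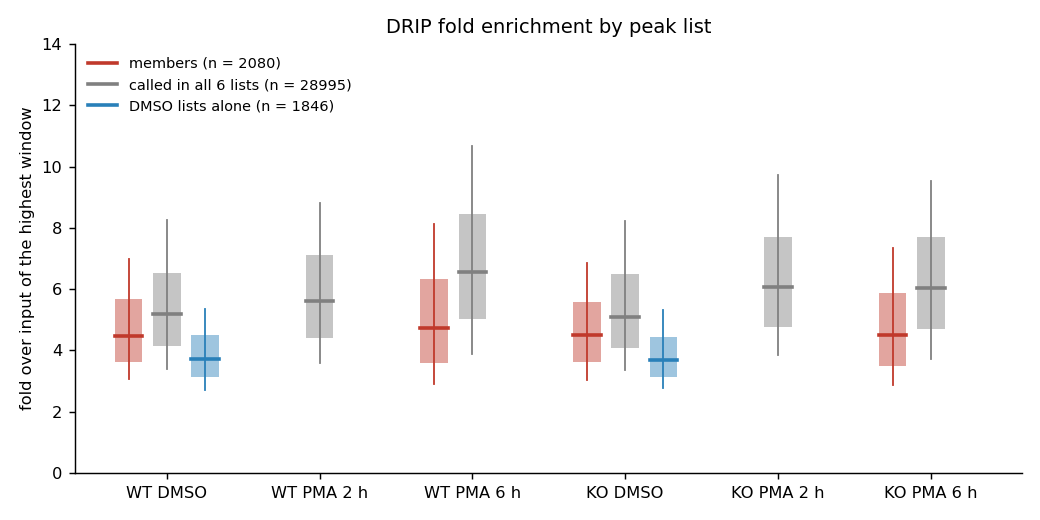
Fold over input of the highest window, on a linear axis, in each DRIP peak list for the 2080 members (red), the 28995 regions called in all 6 lists (gray) and the 1846 regions called in the DMSO lists alone (blue). Thick lines are medians, boxes run from the 25th to the 75th percentile and thin lines from the 10th to the 90th. The members' medians lie between 4.47 and 4.71, between those of the other sets in DMSO.

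The threshold itself lay close to many members. The lowest −log10 q over the 4 lists was 2.00 at the weakest member, 5.08 at the median and 48.5 at the strongest, where the authors' threshold of q = 0.01 corresponds to 2. It was below 3 in 425 members (20.4%) and 5 or more in 1061 (51.0%). Just outside the rule, the 2672 regions with a window in WT at 2 h but not in KO had a median fold of 4.61 and a median −log10 q of 8.02 in that list, and the 3708 with a window in KO but not in WT had 4.96 and 9.16. At 247 members (11.9%) the fold was 5 or more in all 4 lists, and at 13 it was 8 or more. Most members were simple peaks: 1524 (73.3%) held a single window from each of the 4 lists, and their width was 504 to 2476 bp with a median of 625 bp, against a median of 855 bp for regions in all 6 lists.

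Most members had a 2 h window within 10000 bp, and 892 (42.9%) had one within 2000 bp. The gap from a member to the nearest window of either 2 h list had a median of 2691.5 bp, and it was under 500 bp at 328 members (15.8%), under 1000 bp at 563 (27.1%) and under 10000 bp at 1662 (79.9%). Regions called in DMSO alone had a median gap of 2430 bp, with 17.4% under 500 bp. A 2 h window that overlapped a region excluded it, so any shifted peak had moved by at least a window's length, 500 bp. At the members with a gap under 500 bp, such a shift and a lost peak cannot be told apart.

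**Figure D2:**
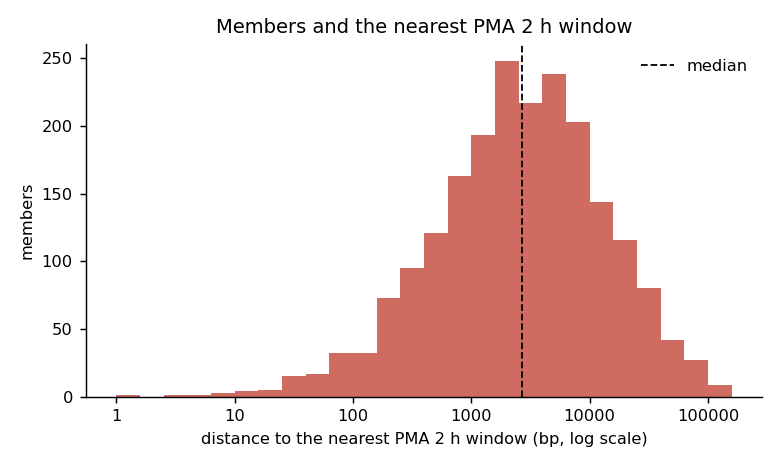
Distance in bp, on a log axis, from each of the 2080 members to the nearest window of either PMA 2 h list, with the number of members on the vertical axis. The dashed line is the median, 2691.5 bp, and the members with a gap of 0 are drawn at 1 bp.

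Members lay mostly in genes. The midpoint was inside an annotated gene at 1563 members (75.1%; interval, 73.2 to 77.0%), against 68.3% of regions in all 6 lists, 81.3% of regions in DMSO alone and 68.1% of all merged regions. It was inside a protein-coding gene at 1298 members (62.4%) and in an exon of one at 303 (14.6%; 13.1 to 16.1%), where the exon share was 8.59% in regions of all 6 lists, 21.6% in DMSO alone and 5.86% over all regions. A midpoint within 2 kb of the start of a protein-coding gene was found at 307 members (14.8%; 13.3 to 16.3%), with 11.5%, 17.3% and 6.01% in the same sets. Gene ends gave 311 members within 2 kb (15.0%; 13.5 to 16.5%), with 8.76%, 21.3% and 5.55%. In genes, exons, gene starts and gene ends the members stood between the regions that were called throughout and those called in DMSO alone. The intervals met neither neighbor for genes, exons and gene ends, while for gene starts the interval of the members met that of DMSO alone (15.6 to 19.1%). In lncRNA genes outside protein-coding genes they lay above both, with 247 members (11.9%; 10.6 to 13.3%) against 9.53% and 7.85%. Over all merged regions that share was 11.3%, inside the interval of the members. Regions that appeared with PMA at 2 h and stayed at 6 h in both lines, 5736 in number, were placed otherwise, with 4.17% within 2 kb of a start and 3.03% in exons. The genes that held members were shorter than those of regions called throughout and longer than those of regions in DMSO alone: the median host gene was 57.9 kb long for members, 67.0 kb for regions in all 6 lists, 45.4 kb for DMSO alone and 117 kb for regions that came with PMA and stayed.

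The DNA of members held more G than C on the coding strand. The median GC content of 500 bp around the midpoint was 47.2%, the same as in regions of all 6 lists, against 49.8% in DMSO alone and 44.8% over all regions. Among members in protein-coding or lncRNA genes of 1 strand, G exceeded C on the coding strand at 915 of 1359 (67.3%; interval, 64.8 to 69.8%), with 55.0% in regions of all 6 lists, 72.9% in DMSO alone and 55.8% over all regions. A sequence of 4 runs of 3 or more G separated by gaps of fewer than 8 bases, on either strand, was present in 271 members (13.0%), in 10.9% of regions in all 6 lists, in 18.9% of those in DMSO alone and in 8.04% of all regions. The motif of AP-1, a factor that PMA activates, was searched as TGACTCA and its reverse complement TGAGTCA, and stood in 127 members (6.11%), with 6.37%, 7.53% and 6.84% in the same sets. By their starts, members and regions in all 6 lists were alike in GC content, with medians of 57.2% in both.

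Some members lay in repeated sequence, where a read can be placed at more than 1 site. The central 32 bases occurred more than once in the genome at 496 members (23.8%) and over 10 times at 299 (14.4%), against 35.4% and 21.8% of regions in all 6 lists and 12.9% and 5.96% of those in DMSO alone. Counts at such members are uncertain between the copies. Of the 12 members with the highest minimum fold over the 4 lists, 4 were of this kind. A member in the pseudogene GUSBP1 (chr5:21502765-21503300) had folds of 10.1 in WT DMSO, 9.58 in KO DMSO, 16.3 in WT PMA 6 h and 11 in KO PMA 6 h, and its center occurs 8 times in the genome. A member in BOLA2-SMG1P6 (chr16:29448158-29448851), also with 8 copies of its center, had 9.04, 10.9, 21.9 and 13.3 in the same order.

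Strong members with a unique center included the following, chosen from those the naming rule gave. All folds below are over input, in the order WT DMSO, KO DMSO, WT PMA 6 h and KO PMA 6 h. CD24, a surface glycoprotein of epithelial cells, held a member 1185 bp inside its start with folds of 9.58, 10.8, 13.5 and 9.97, and its nearest 2 h window lay 190 bp away. An intron of FDXR, the mitochondrial ferredoxin reductase, held one with 9.48, 9.56, 13.2 and 10.2, with the nearest 2 h window at 2691 bp. CIAPIN1, a factor of cytosolic iron–sulfur cluster assembly, had 9.98, 8.95, 9.48 and 12.8 at 1682 bp from its start. In these 3 genes the highest of the 4 values was less than 1.5 times the lowest. Outside genes, a member at chr8:125023774-125024308, 25544 bp from the start of SQLE, had 10.7, 15.8, 9.44 and 14.4, with no 2 h window within 52352 bp, and it met 1 A3B-eGFP region with doxycycline and DMSO. FARSB, a subunit of the phenylalanine tRNA synthetase, had 8.90, 11.5, 6.99 and 11.1 at 566 bp from its start and no 2 h window within 8842 bp. EIF4E, the cap-binding factor of translation, had 7.06, 7.10, 8.47 and 7.35 at 1306 bp from its start. BMS1, a GTPase of small ribosomal subunit assembly, had 5.78, 5.57, 6.89 and 7.30 at 232 bp from its start, with the nearest 2 h window 14253 bp away.

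Some genes held more than 1 member, and no matching count was made for other sets of regions. They fell in 1628 protein-coding or lncRNA genes, of which 1446 held 1 member, 147 held 2 and 35 held 3 or more. MIRLET7BHG, the host transcript of let-7 microRNAs on chr22, held the most with 9, spread from chr22:46053764-46055529 to chr22:46084846-46085407, and the center of each was unique in the genome. Its member at chr22:46074944-46075468 had folds of 12.5 in WT DMSO and 13.2 in KO DMSO and of 5.62 in WT and 4.83 in KO at 6 h. Its member at chr22:46073914-46074496 went from 10.8 and 6.76 in DMSO to 3.07 and 3.02 at 6 h, while that at chr22:46080249-46080799 had 8.68, 10.1, 8.89 and 10.1. Return at 6 h thus reached the DMSO fold at some members of the gene and stayed below it at others. TRNP1, a nuclear regulator of cell proliferation, held 4 members within its 7.20 kb, with folds from 3.58 to 7.96 over the 4 lists, and ANXA8, an annexin, held 4 with folds from 3.08 to 10.8. At ANXA8, 3 of the 4 centers occur more than once in the genome, since near-identical copies of the gene exist. The 7 members of DHRS4-AS1 are partly the same as the 5 of DHRS4L2 and the 5 of DHRS4L1, which overlap it, and these too are duplicated genes.

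Other windows of these genes are described without being independent of the rule: the genes were picked for their members, and leaving members out takes windows from the DMSO and 6 h lists but none from the 2 h lists. In MIRLET7BHG there were 22 such windows in WT and 15 in KO with DMSO, 3 and 8 at 2 h, and 8 and 13 at 6 h. ANXA8 had 8 in each line, then 1 and 3, then 3 and 6. TRNP1 had 1 in each line, none at 2 h and 2 in each line at 6 h. In these 3 genes the count was lowest at 2 h in both lines. Over the 35 genes with 3 or more members, 29 had fewer windows outside members at 2 h than in DMSO in WT and 29 in KO, and the summed windows went from 587 to 439 to 812 in WT and from 602 to 423 to 835 in KO. Over all 1628 host genes the 2 h to DMSO ratio of all windows was 0.854 in WT and 0.897 in KO, and that of windows outside members was 1.03 and 1.08, while genes with a DRIP window and no member had 1.20 and 1.24. Genes are not replicates, host genes hold more windows than other genes, and several of the 35 overlap each other, so these are counts without a test.

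**Figure D3:**
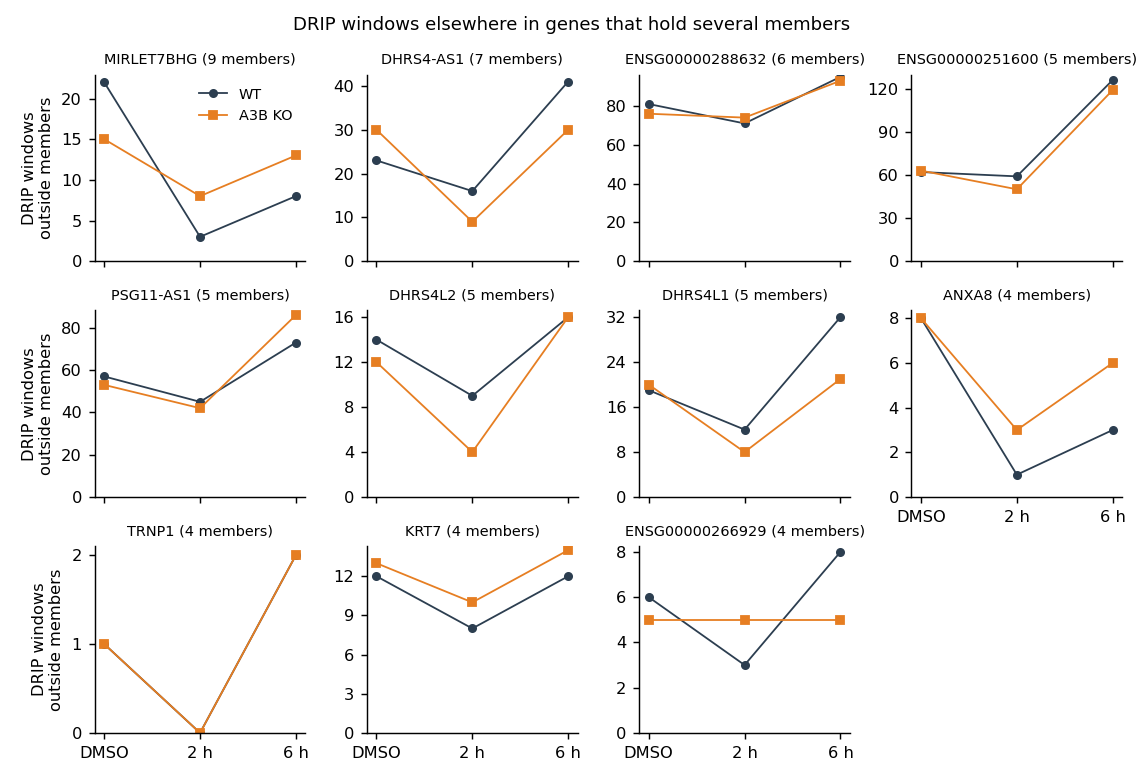
DRIP windows outside members, on a linear axis from 0, in 11 genes that held 4 or more members, for DMSO, PMA 2 h and PMA 6 h in WT (circles) and A3B KO (squares); 1 library per point. In MIRLET7BHG, ANXA8 and TRNP1 the 2 h point is the lowest in both lines, and in TRNP1 the lines coincide. DHRS4-AS1, DHRS4L2 and DHRS4L1 overlap and share windows.

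Genes in the lists of ribosome biogenesis and MYC targets, mitochondrial ribosomal proteins and translation factors held members at a higher rate than all protein-coding genes. A member lay inside or within 2 kb of the start of 1397 of 19960 protein-coding genes, or 7.00%, and of 13.3% of those that had a region in all 4 lists of the rule. In the list of ribosome biogenesis and MYC target genes it was 13 of 28 (46.4%), and 54.2% of those with a region in all 4 lists. With equal list lengths it was 7 of 28, and the share of all protein-coding genes was not computed there. The 13 were CAD, FBL, GNL3, NCL, NME1, NOLC1, NOP56, NPM1, POLR1A, POLR1B, POLR1C, SRM and WDR43. NCL encodes nucleolin, a main protein of the nucleolus, and its member (chr2:231462987-231463530) had folds of 10.5, 11.5, 8.25 and 6.84. SRM, spermidine synthase, had 6.34, 5.83, 7.5 and 5.94. WDR43, a factor of early ribosomal RNA processing, had 5.44, 6.08, 6.14 and 6.42, and GNL3, nucleostemin, had 5.58, 6.53, 5.32 and 4.28 in an exon that also lies 304 bp upstream of PBRM1. The 2 h windows nearest to NCL and SRM lay 314 and 33 bp away, and those nearest to WDR43 and GNL3 lay 3425 and 1986 bp away. Mitochondrial ribosomal protein genes held members at 15 of 78 (19.2%), translation factors at 13 of 62 (21.0%) and splicing factors and hnRNPs at 13 of 75 (17.3%). DDX and DHX helicases held them at 9 of 56 (16.1%) and heat shock chaperones at 5 of 15 (33.3%). Of the chaperones, HSPD1 and HSPE1 were counted through the same member, and DNAJA1 through one inside APTX. Cytosolic ribosomal protein genes stood near the rate of all genes with 7 of 85 (8.24%). Of those with a region in all 4 lists of the rule, 8.64% held a member, below the 13.3% of all such protein-coding genes. The cytosolic genes with a member included RPL19, with folds of 6.83, 8.15, 8.12 and 7.93. These lists were put together with earlier results of these data known, and genes with more or longer regions have more chances to hold a member.

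The windows of all genes in each list, members included, were also counted, and the members add to the DMSO and 6 h counts alone. Over the 19960 protein-coding genes the windows went from 56987 in DMSO to 64676 at 2 h in WT and from 60175 to 71719 in KO. Of 25 lists, 11 had a 2 h to DMSO ratio below 1 in both lines, 10 had one above 1 in both and 4 differed between the lines. In the 28 ribosome biogenesis and MYC target genes, windows numbered 186 in WT and 198 in KO with DMSO, 131 and 128 at 2 h, and 198 and 220 at 6 h, a ratio of 0.704 and 0.646. Windows outside members gave 0.775 and 0.711 there, and genes without a member gave 0.814 and 0.778. With members included, the ratio was 0.797 and 0.843 in cytosolic ribosomal protein genes and 0.637 and 0.811 in mitochondrial ones. In translation factors it was 0.879 and 0.866. Outside members, the ratios of these gene lists were 0.813 and 0.859, 0.685 and 0.881, and 0.916 and 0.906. Replication-dependent histone genes, with no member, had 0.878 and 0.956. The ratio did not follow the share of genes with a member in every list. G1 cyclins and their partners had 4 of 15 genes with a member and a ratio of 1.18 and 1.26, common fragile site genes had 4 of 14 and 1.56 and 1.46, and basal epithelial genes had 4 of 18 and 0.952 and 1.27. Immediate early genes had 1.20 and 1.25, and NF-κB targets had 1.78 and 2.17. With genes that held a member left out, which is itself set by the rule, 6 lists were below 1 in both lines and 11 above.

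Immediate early, MAPK feedback and NF-κB target genes, which PMA is known to induce, each had 1 gene with a member. Counts of 1 in lists this short cannot be set apart from the 7.00% of all protein-coding genes. Immediate early genes had 1 of 34, CCN1, a matrix protein, with folds of 4.54, 4.35, 6.03 and 7.48. MAPK feedback genes had 1 of 14, DUSP4, a phosphatase of MAP kinases with 3 members, and NF-κB targets had 1 of 22, NFKB1, at 300 bp upstream of its start with 4.02, 5.83, 2.97 and 2.96. Partners of the G1 phase had 4 of 15, among them CCND1, cyclin D1, with 7.35, 5.98, 5.66 and 7.29. Of the genes that act on R-loops, DDX1, RNASEH2B and BRCA1 held a member (3 of 20), and the center of the BRCA1 member occurs 19 times in the genome. Common fragile site genes, which are very long, had 4 of 14 (28.6%). Replication-dependent histone genes had none of 69, 22 of them with a region in all 4 lists.

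**Figure D4:**
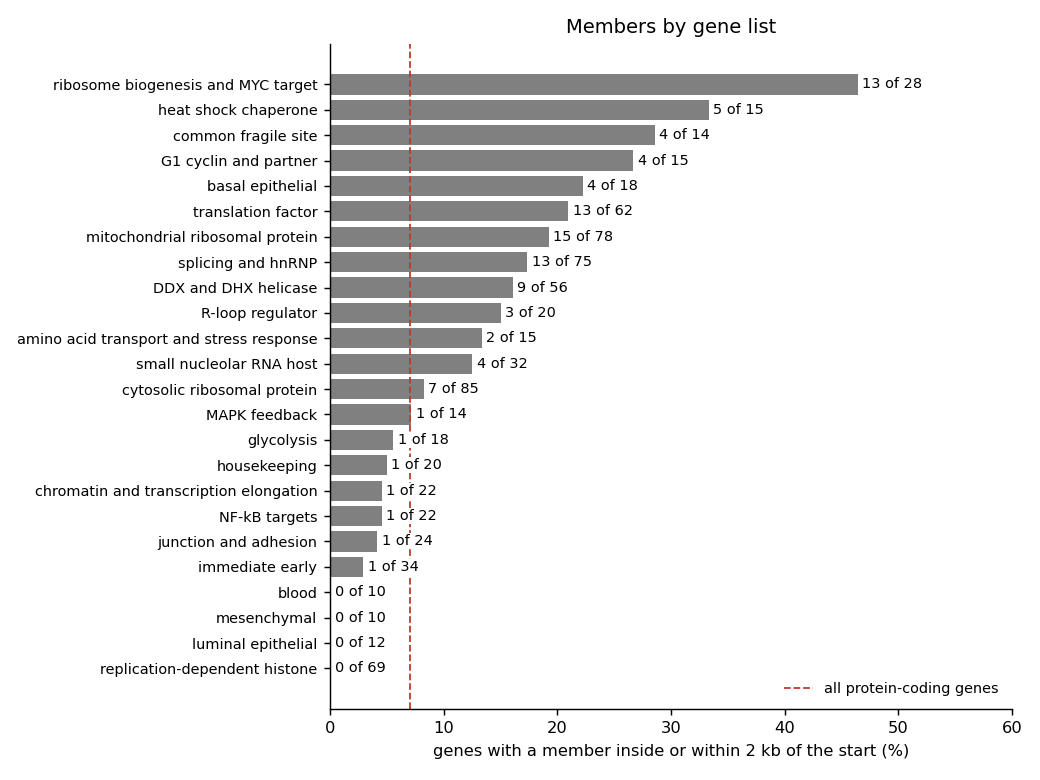
Percent of genes in each list with a member inside the gene or within 2 kb of its start, with the counts beside the bars. The dashed line is the 7.00% of all protein-coding genes, and ribosome biogenesis and MYC target genes have the highest share with 13 of 28.

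Lists of cell type genes were counted in the same way. Basal epithelial genes had a region in all 4 lists of the rule at 16 of 18 and a member at 4, COL17A1, CAV1, CAV2 and ITGB4. Blood genes had such a region at 1 of 10, luminal genes at 5 of 12 and mesenchymal genes at 7 of 10, with no member in any of them. Of all 19960 protein-coding genes, 10490 had such a region and 1397 held a member. A count of no member in lists this short thus says little. DRIP windows do not measure expression, so these counts describe where regions were called and do not establish the identity of the cells.

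A3B-eGFP regions were independent of the rule, and members overlapped them more in DMSO than after 2 h of PMA. With doxycycline and DMSO, 69 members overlapped an anti-GFP region (3.32%; interval, 2.63 to 4.18%), against 1.34% of all merged regions. With doxycycline and PMA for 2 h it was 25 members (1.20%; 0.815 to 1.77%), against 1.44% of all regions, although that list was the longer, with 7122 windows against 5945. These shares moved with the choice of members: the PMA share was 2.2% with a −log10 q of 5 or more, 0.758% for members with a unique center and 0.721% without regions that met a no-doxycycline region, and the DMSO share was 2.08% with the rule in WT alone and 1.69% with the rule in KO alone. Without doxycycline it was 29 members (1.39%), against 0.835%, and this was the uninduced control of the antibody. Among members that met no region of the list without doxycycline, 58 met a DMSO region and 14 a PMA region. Of all members, 15 met both a DMSO and a PMA region, and 6 of these met a region in all 3 lists. Regions called in DMSO alone had the same order, with 3.03% in the DMSO list and 0.921% in the PMA list, and regions called in the 2 h lists alone had the opposite one, with 1.75% and 6.10%. Regions in all 6 lists had 4.75% and 4.67%. The share of members in the DMSO list exceeded that in the PMA list in each band of width: 1.89% and 1.00% from 500 to 600 bp, 4.16% and 1.46% from 600 to 800 bp, and 4.58% and 1.29% above. These were 17 and 9, 20 and 7, and 32 and 9 members. All merged regions had 0.842% and 0.941%, 2.11% and 2.13%, and 2.85% and 2.98% in these bands. Regions called in DMSO alone had the same order as members in each band, with 2.85% and 0.801%, 2.39% and 0.651%, and 4.98% and 1.92%. The members and the A3B-eGFP regions come from different lines, with 1 library for each condition.

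**Figure D5:**
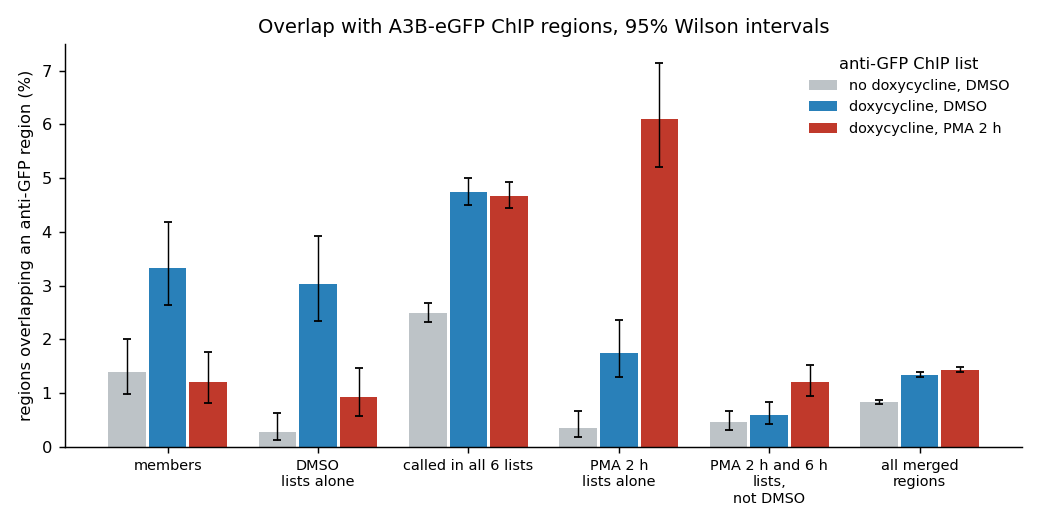
Percent of regions that overlapped an anti-GFP ChIP region by 1 bp or more in the 3 ChIP lists, for the members and for other sets of merged DRIP regions; lines are 95% Wilson intervals, for counting error alone. Members have 3.32% in the induced DMSO list and 1.20% in the PMA list.

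MIRLET7BHG, picked for its number of members, also held anti-GFP windows. In the induced cells it held 14 anti-GFP windows in DMSO and none after PMA, and it held none without doxycycline, and 2 of its 9 members, the first and the last, met 2 of those windows each. At KRT7, a keratin with 4 members, the counts were 9, 5 and 0, and at TRNP1 they were 1, 0 and 0, while ANXA8 had none in any list. SLC7A5, an amino acid transporter, held a member with folds of 9.72, 8.28, 4.30 and 2.95 that met 1 DMSO region and no other, and ITGB4, the integrin of hemidesmosomes, held one with 5.41, 5.27, 3.14 and 2.94 that did the same. Other strong members differed. That 43721 bp from the start of SULT2A1 met 1 region in each of the 3 lists, and its center occurs 348 times in the genome. That 35046 bp from the start of EPN2 met 1 region without doxycycline and 1 with doxycycline and DMSO. Of all members, 49 met a DMSO region and neither other list, and 5 a PMA region and neither other list. Over all host genes, 237 of 1628 (14.6%) held an anti-GFP window in the induced DMSO list and 140 (8.60%) in the PMA list, and 174 held more in DMSO against 76 with more in PMA. Genes with a DRIP window and no member held one in 7.44% and 6.48%, and had more in DMSO at 1218 and more in PMA at 1100. At the duplicated loci PSG11-AS1 and DHRS4-AS1 the windows without doxycycline, 118 and 25, outnumbered those with it, and A3B-eGFP and background cannot be told apart there.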

How the data were processed

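The 9 deposited peak lists, 6 of DRIP–seq and 3 of anti-GFP ChIP–seq, were analyzed, with 1 library in each condition. Per the labels and methods, the authors trimmed reads with Cutadapt 1.13, aligned them to hg38 with STAR 2.6.1d, filtered for proper pairs (SAMtools 1.3.1), took out duplicates (Picard) and excluded regions (bedtools 2.29.2), and called peaks with MACS2 against input at q = 0.01 (2.2.6 in the processing notes; the methods name another version). The deposited pileup is the authors' fragment coverage signal at the summit, the fold enrichment is the authors' ratio over local background, and the −log10 q is the authors' value for the immunoprecipitation against its input. Reads per library are unknown, no scaling between libraries is stated, and the coordinates may be off by 1 bp, as the lists do not name their counting. Entries on other sequences, mainly mitochondrial, were left out.

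Windows were merged, counted and overlapped in Python 3.11.15 with pandas 2.3.3; genes came from GENCODE 44 and sequences from hg38. Merging, overlap and distance steps were checked on simulated data. A member's value in a list is its window with the highest fold. Shares have 95% Wilson intervals. The members and the gene lists were chosen with earlier results of these data known. Genes were named by a rule: the 10 genes with the most members, the 12 members with the highest minimum fold over the 4 lists, the 10 such promoter members, the 6 such members with A3B-eGFP and up to 4 genes of each list. The text gives a choice, and KRT7, PBRM1 and the full ribosome biogenesis and MYC target list are named beyond the rule after their values were seen. Values of 1 gene that the rule gave are not reported here. No test was made, since no condition had replicates.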

Additional observations from a re-analysis of the deposited data

How the results depend on the processing

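The member count was 1679 with a −log10 q of 5 or more, 2265 with trimmed windows and 1802 with windows within 500 bp merged, and kept within 1.5 times. It fell to 1045 with every list cut to 91894 windows, and rose to 15201 with the rule in WT alone and 16667 in KO alone, which ask for fewer lists. The promoter share was 17.3% at the stricter threshold, 11.8% with equal lists, 9.43% in WT alone, 7.46% in KO alone, 17.3% for members with a unique center, an alternative chosen after seeing the data, and 9.13% within 1 kb of the start. The intragenic share was 70.4% in WT alone and 70.4% in KO alone. The A3B-eGFP share in DMSO was 4.59% at the stricter threshold, 2.49% with equal lists, 2.08% in WT alone and 1.69% in KO alone. The share with PMA was 2.2% at the stricter threshold, 0.758% for unique centers and 0.721% without regions that met a no-doxycycline region; it was below the DMSO share in every setting run, with the smallest ratio between them for equal lists (2.49% and 1.63%). The median GC content was 47.8% at the stricter threshold, 46.4% in WT alone, 44.8% in KO alone and 48.5% over 200 bp. In the ribosome biogenesis and MYC target list, genes with a member numbered 7 with equal lists, 23 in WT alone and 22 in KO alone. The share of all protein-coding genes with a member was not computed under these settings. Ranked by pileup, members stood at percentile 57.9 (WT DMSO), 59.6 (KO DMSO), 47.0 (WT 6 h) and 55.2 (KO 6 h), and by −log10 q at 50.9 in KO at 6 h. The causes of the other shifts were not tested. No paired analysis was possible because no test was made. With 1 library per condition, a missed call and a lost R-loop cannot be told apart.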
